A study of Sus scrofa with 6 samples.

Results

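Ribosomal protein genes mostly have 1 functional copy that is used in every cell, but a few have a second expressed copy, a paralog, whose protein resembles that of the parent gene. The genes described here are the paralogs RPL22L1, RPL26L1, RPL36AL and RPS27L, together with RPS27, the parent of RPS27L. Every probe set whose only gene symbol in the platform annotation is one of these 5 symbols was taken, which gave 6 probe sets of 23999 on the array that are not controls, 2 of them for RPS27. The genes were proposed with the difference between the cell lines in view, so the values of this comparison are a description and no test of these genes is drawn from it.

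IPEC-J2 and IPEC-1 are spontaneously immortalised epithelial lines derived from the small bowel of newborn piglets. RNA of 3 IPEC-J2 and 3 IPEC-1 cultures, 500 ng each, was hybridised to Affymetrix Porcine Genome Arrays, 1 culture per array. Both lines were untreated and were grown at 39 °C and 5% CO2 on membrane inserts, in medium with 5% fetal calf serum, an insulin-transferrin-selenium supplement and 5 ng/mL epidermal growth factor. The labels give 7 days on the membrane, where the methods state a later day of lysis, and the 2 lines carry the same repository number in the labels but separate ones in the methods.

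The ribosome builds proteins from 2 subunits of ribosomal RNA and ribosomal proteins, whose names begin with RPL for the large (60S) and RPS for the small (40S) subunit. Most ribosomal protein mRNAs are among the most abundant in a cell. RPL22 and RPL22L1 bind RNA, and in mouse cells RPL22 represses the gene of its paralog. RPS27 and RPS27L are small zinc finger proteins of the 40S subunit. In human cells RPS27L is a target gene of the transcription factor p53, and both proteins bind MDM2, the ubiquitin ligase that limits p53. RPL36AL encodes a protein that in humans is nearly identical to that of RPL36A, and RPL26L1 is a close relative of RPL26.

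Signals are log2 values per probe set as deposited, with a floor of exactly 4. They lay between this floor and a highest value of 14.19 to 14.34 per array. Between 40.5 and 48.3% of the probe sets were at the floor on an array, and IPEC-J2 replicate 1 was the array with the highest share and the lowest median signal (5.37, against 6.18 to 6.53 on the other 5 arrays). All 11 epithelial markers had a signal above the floor on at least 1 array, with a mean signal over the list of 11.19 to 11.51 in IPEC-J2 and 10.08 to 10.64 in IPEC-1. The markers went both ways. Of 15 epithelial probe sets tested, 4 were called higher and 2 lower, or 26.7% and 13.3%, against 8.79% and 10.2% of all probe sets. Their median log2 difference, IPEC-J2 minus IPEC-1, was 0.02. VIL1 (6.90) and CLDN3 (4.28) were called higher, both with IPEC-1 arrays at the floor. KRT19 (-0.80) and a probe set of OCLN (-0.86) were called lower. Of the markers with a probe set, 3 of 4 endothelial, 3 of 6 fibroblast and 1 of 4 immune genes were at the floor on every array, among them VWF, DCN and PTPRC. Others were not, and PECAM1, an endothelial marker, had 4.00, 5.73 and 4.00 in IPEC-J2, against 7.76, 7.30 and 7.42 in IPEC-1, while CD3E, a T cell marker, was at the floor in IPEC-J2 and at 5.60 to 6.13 in IPEC-1, both called lower. VIM, which fibroblasts and many cultured cells express, averaged 11.48 in IPEC-J2 and 12.86 in IPEC-1, and PDGFRB 5.41 in IPEC-J2 and 7.09 in IPEC-1, neither called. The mean signal was 4.00 to 4.22 in IPEC-J2 and 4.41 to 4.47 in IPEC-1 for the endothelial list, 5.58 to 5.80 and 5.96 to 6.11 for the fibroblast list, and 4.00 to 4.21 and 4.40 to 4.53 for the immune list, and the part of these differences in the results was not tested. The 124 control probe sets were left out, and the 16322 probe sets above the floor on at least 1 array were compared between the lines. The median log2 difference over them, IPEC-J2 minus IPEC-1, was -0.07.

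The 5 genes did not move one way. RPS27L had a higher signal in IPEC-J2, while RPL22L1, RPL26L1, RPL36AL and RPS27 had a lower one. None of the 6 probe sets was at the floor on any array, and in all 6 the 3 arrays of one line lay apart from the 3 of the other. Over all probe sets tested, the IPEC-J2 arrays all lay above the IPEC-1 arrays in 17.4% and all below in 23.9%. Called probe sets are those with an adjusted p under 0.05 from limma (Benjamini-Hochberg over the 16322 probe sets), and 5 of the 6 were called, 1 higher and 4 lower, where 19.0% of all probe sets tested were called (8.79% higher and 10.2% lower). Nothing is read from these counts, since the genes were chosen on this contrast. Each array was loaded with the same amount of RNA, so that a level per cell is not measured, and fewer cells with an mRNA cannot be told apart from less mRNA per cell.

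**Figure D1:**
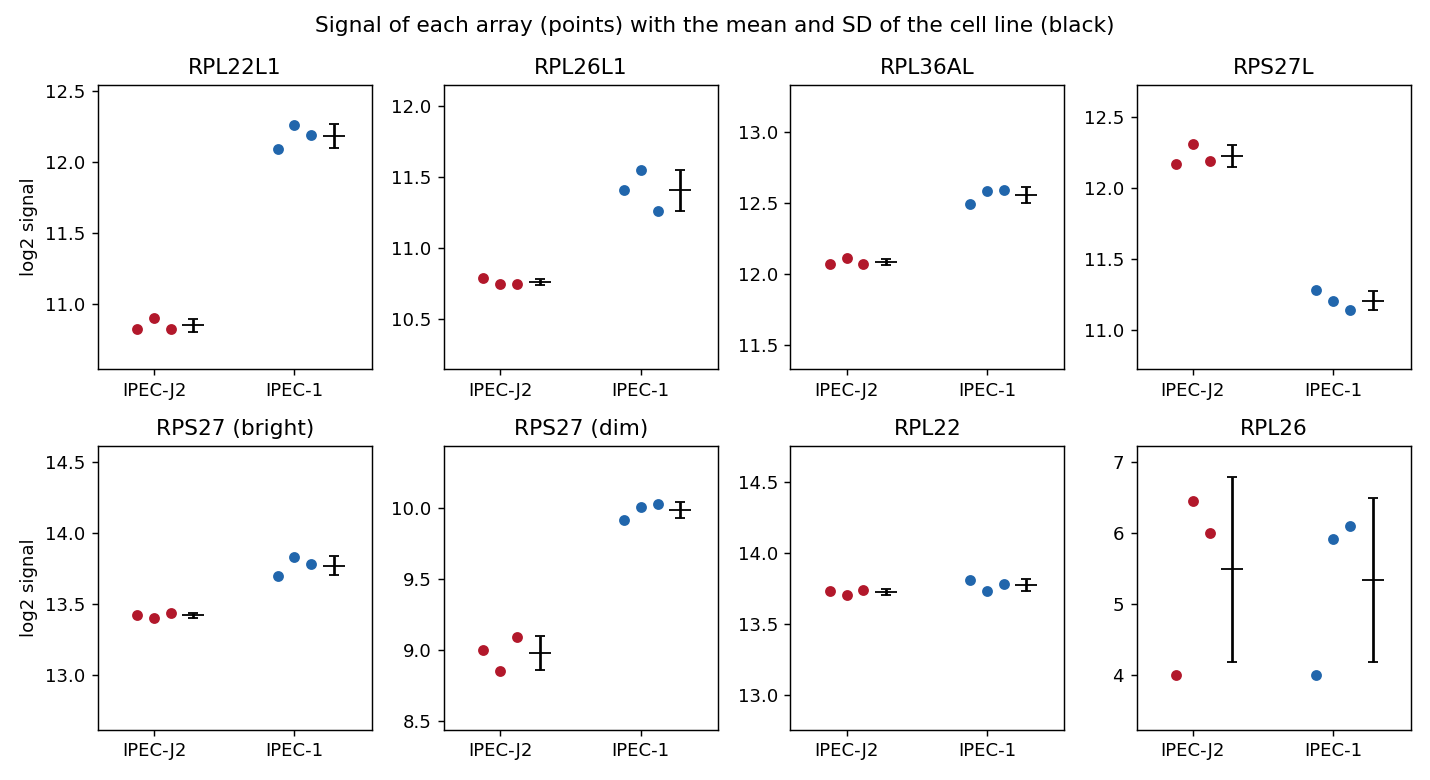
Log2 signal (vertical axis, 1 scale per panel) of each array of IPEC-J2 (red) and IPEC-1 (blue) for the 6 probe sets and for the parents RPL22 and RPL26, with the mean and SD of each line in black (n = 3 each). The lines lie apart in the first 6 panels, with RPS27L at 12.17 to 12.31 in IPEC-J2 and 11.14 to 11.28 in IPEC-1, and they overlap in RPL22 and RPL26.

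RPS27L, the 40S paralog, had log2 signals of 12.17, 12.31 and 12.19 on the IPEC-J2 arrays, against 11.28, 11.20 and 11.14 on the IPEC-1 arrays. All IPEC-J2 arrays were high and all IPEC-1 arrays low, with a gap of 0.89 between the lines where the widest range within a line was 0.14. Its mean was 12.22 ± 0.08 in IPEC-J2 and 11.21 ± 0.07 in IPEC-1 (SD, n = 3 each), a log2 difference of 1.02 (SE 0.11, 95% interval 0.74 to 1.29) or 2.02-fold. A difference at least as high was found in 9.51% of all probe sets tested. Arrays that share a culture note in the labels differed by 0.91 (note A, IPEC-J2 replicate 3 and IPEC-1 replicate 1) and 0.97 (note B, IPEC-J2 replicate 1 and IPEC-1 replicate 2). RPS27L is read by a single probe set whose identifier ends in _s_at, the suffix that Affymetrix gives to probes that can match more than one transcript. No probe sequences were used here, so the part of a related transcript in this signal was not tested.

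The parent gene RPS27 was read by 2 probe sets of very different brightness. The bright one had signals of 13.42, 13.40 and 13.44 in IPEC-J2, against 13.70, 13.83 and 13.78 in IPEC-1, and came within 0.42 of the highest signal of an array. Its log2 difference was -0.35 (SE 0.10, 95% interval -0.61 to -0.09), and it was the 1 probe set of the 6 that was not called. The dim one had signals of 9.00, 8.85 and 9.09 in IPEC-J2, against 9.92, 10.01 and 10.03 in IPEC-1, a log2 difference of -1.01 (SE 0.12, 95% interval -1.30 to -0.71) or 2.01-fold lower. Both had all IPEC-J2 arrays below all IPEC-1 arrays, and the sizes of their differences did not match, at -0.26 and -0.41 for the bright and -0.83 and -1.01 for the dim probe set within notes A and B. The mean over both, as the methods average probe sets of a gene, differed by -0.68.

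Set side by side on each array, RPS27L and RPS27 stood further apart or closer together depending on the line. The log2 signal of RPS27L minus that of the bright RPS27 probe set was -1.25, -1.09 and -1.25 in IPEC-J2, against -2.42, -2.63 and -2.64 in IPEC-1. The shift between the lines was 1.37 (SE 0.09). The SE of a shift comes from the SDs of these per-array values and not from the limma fit. A shift carries the differences of RPS27L and RPS27 themselves and adds no independent value. The offset within an array also holds the different response of the probes and is no ratio of mRNA amounts. With the dim RPS27 probe set, the offset was 3.17, 3.46 and 3.10 in IPEC-J2, against 1.36, 1.19 and 1.11 in IPEC-1, a shift of 2.02 (SE 0.13). The shift has the same sign with either probe set, but its size depends on which one is taken. RPS27A, a fusion of ubiquitin with another 40S protein that shares only the name, had signals of 14.02, 14.03 and 14.04 in IPEC-J2 and 13.96, 14.01 and 13.96 in IPEC-1 with its bright probe set.

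**Figure D2:**
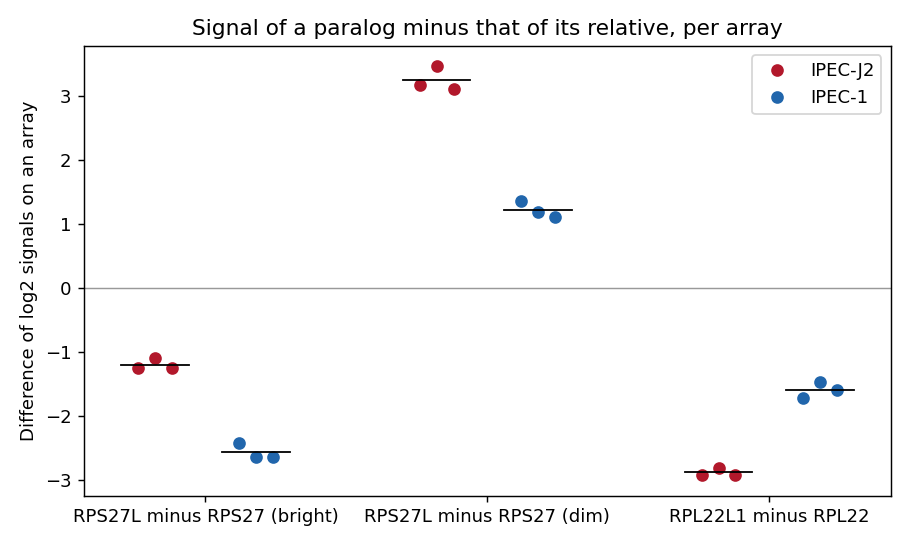
Log2 signal of a paralog minus that of its relative on the same array (vertical axis) for IPEC-J2 (red) and IPEC-1 (blue), with the mean of each line as a black bar. RPS27L minus RPS27 is higher on all IPEC-J2 arrays with either RPS27 probe set, by 1.37 and 2.02, and RPL22L1 minus RPL22 is lower on all IPEC-J2 arrays, by 1.28, which carries the difference of RPL22L1 itself.

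RPL22L1, the paralog of the 60S protein RPL22, had the largest difference of the 6 probe sets. Its probe set had signals of 10.82, 10.90 and 10.82 in IPEC-J2, against 12.09, 12.26 and 12.19 in IPEC-1. The IPEC-J2 arrays were all low, and the gap of 1.19 between the lines was 7 times the widest range within a line (0.17). The mean was 10.85 ± 0.05 in IPEC-J2 and 12.18 ± 0.09 in IPEC-1 (SD, n = 3 each), a log2 difference of -1.33 (SE 0.11, 95% interval -1.60 to -1.06) or 2.52-fold lower, with -1.27 within note A and -1.44 within note B. A difference at least as low was found in 6.98% of all probe sets tested.

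The parent RPL22 overlapped between the lines, where its paralog lay apart. RPL22 had signals of 13.73, 13.70 and 13.74 in IPEC-J2, against 13.81, 13.73 and 13.78 in IPEC-1. Its log2 difference of -0.05 (SE 0.10, 95% interval -0.30 to 0.20) was not called (adjusted p = 0.737 from limma). RPL22 is not among the genes chosen for their difference, but its signal lies close to the top of the scale, and whether the probe set could show a change there was not tested. The signal of RPL22L1 minus that of RPL22 was -2.91, -2.80 and -2.92 in IPEC-J2, against -1.72, -1.47 and -1.59 in IPEC-1, a shift of -1.28 that carries the difference of RPL22L1 itself and adds no independent value.

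RPL26L1, the paralog of the 60S protein RPL26, had signals of 10.79, 10.75 and 10.75 in IPEC-J2, against 11.41, 11.55 and 11.26 in IPEC-1. The IPEC-1 arrays spread more widely, with an SD of 0.02 in IPEC-J2 and 0.15 in IPEC-1, and the gap of 0.47 was 1.62 times the widest range within a line. The log2 difference was -0.64 (SE 0.12, 95% interval -0.95 to -0.34), 1.56-fold lower, with -0.66 within note A and -0.76 within note B. The call ended when IPEC-1 replicate 1, IPEC-J2 replicate 2 or IPEC-J2 replicate 3 was left out, each time at a log2 difference of -0.64. The parent RPL26 had 4.00, 6.45 and 6.00 in IPEC-J2 and 4.00, 5.91 and 6.09 in IPEC-1, with 1 array of each line at the floor, so its probe set gives no comparison of parent and paralog.

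RPL36AL had signals of 12.07, 12.11 and 12.07 in IPEC-J2, against 12.49, 12.58 and 12.59 in IPEC-1. The lines lay apart by 0.38, where the widest range within a line was 0.10. The log2 difference of -0.47 (SE 0.10, 95% interval -0.72 to -0.22), 1.39-fold lower, was the smallest among the called probe sets of these genes, with -0.42 within note A and -0.51 within note B. Its call ended when any 1 array other than IPEC-J2 replicate 1 was left out, with differences between -0.50 and -0.45. The parent RPL36A was not analysed here, as no probe set carried its symbol alone.

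The other cytosolic ribosomal proteins give the frame for these values. Of 78 such genes listed, 59 had a probe set with 1 symbol, and 88 probe sets of 57 genes were tested. By limma 1 of the 88 was higher and 0 were lower in IPEC-J2, against 8.79% and 10.2% of all probe sets. At an unadjusted p under 0.05, 2 were higher and 12 lower. The median log2 difference was -0.17 over 52 probe sets of 60S proteins and -0.02 over 36 of 40S proteins, where the median over all probe sets tested was -0.07. In 31 of the 88 all IPEC-J2 arrays lay below all IPEC-1 arrays, and in 9 all lay above, where the shares over all probe sets tested were 23.9% and 17.4%.

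This count of lower ribosomal protein probe sets differed between settings. The methods' t-test was run here per probe set, where the methods first average the probe sets of a gene. It called 4 higher and 20 lower after Benjamini-Hochberg adjustment (7 and 30 before it). Limma gave counts of 4 and 20 with trend and robust options or with the probe sets at the floor on every array kept. The bright RPS27 probe set had SDs of 0.02 in IPEC-J2 and 0.07 in IPEC-1. Its SE was 0.102 with limma defaults and 0.0515 with trend and robust options. A ribosomal protein probe set that was not called is not shown to be unchanged. Differences were small where signals were high. Among ribosomal protein probe sets with a mean of at least 13, RPS27 included, 58 in all, the differences lay between -0.37 and 0.33.

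RPS25, a 40S protein that several viral mRNAs need to start translation, held the only called probe set among the 88. This probe set had 10.13, 10.26 and 10.33 in IPEC-J2, against 9.37, 9.45 and 9.48 in IPEC-1, a log2 difference of 0.81 (SE 0.11, adjusted p = 0.00844 from limma). All IPEC-J2 arrays were high. A brighter RPS25 probe set had 13.77, 13.69 and 13.73 in IPEC-J2, against 13.39, 13.33 and 13.47 in IPEC-1, a difference of 0.33 that was not called (adjusted p = 0.0840 from limma). RPS25 and RPS27 therefore both had a bright probe set with a small difference and a dim one with a larger difference of the same sign.

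Of the 88, 78 probe sets were above the floor on all 6 arrays, with log2 differences from -0.46 to 0.81 and a median of -0.10. RPS27L lay above all 78, and RPL22L1, RPL26L1, RPL36AL and the dim RPS27 probe set lay below all 78. Most of the 78 were brighter than these probe sets, whose means were under 13 in both lines. With bright RPS27 included, 58 ribosomal protein probe sets had a mean of at least 13, where differences were small. The place of the genes among probe sets of like signal was not tested. The bright RPS27 probe set lay within them, with 8 lower and 70 higher. The other 10 probe sets were at the floor on 1 to 5 arrays, and their differences, up to 2.35 in size, rest on those arrays. Since the genes were chosen for their differences, their place at the ends of this range is a description.

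**Figure D3:**
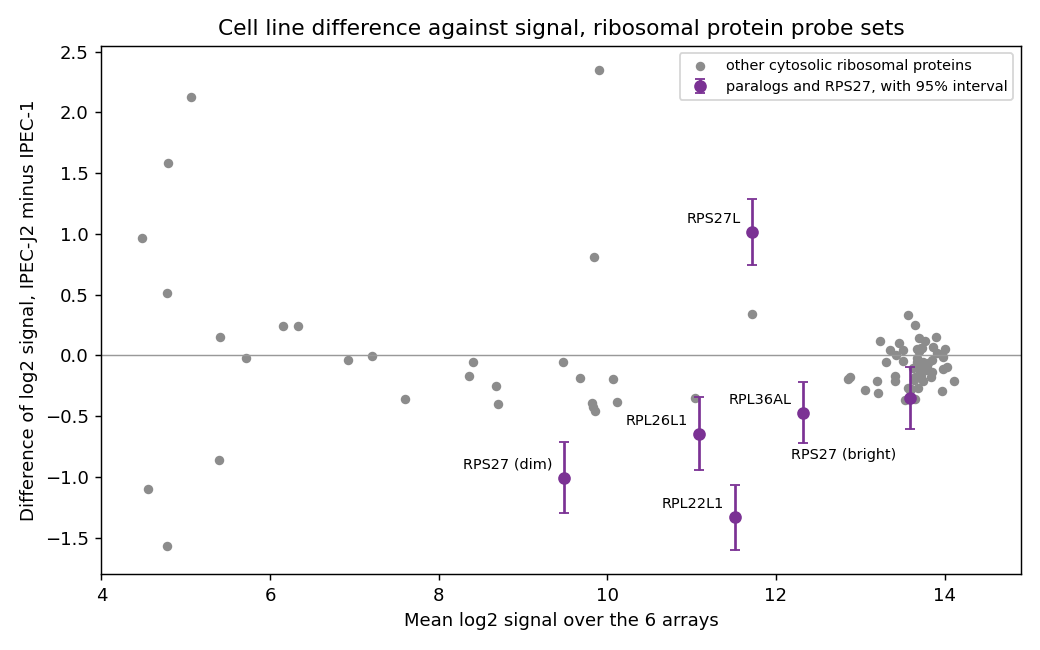
Log2 difference, IPEC-J2 minus IPEC-1 (vertical axis), against the mean log2 signal over 6 arrays (horizontal axis) for 88 probe sets of other cytosolic ribosomal proteins (grey) and the 6 probe sets of the paralogs and RPS27 (purple, with the 95% interval of the limma fit). Grey points with a mean of at least 13 stay near 0, RPS27L stands at 1.02 and RPL22L1 at -1.33, and the widest grey points at low signals include probe sets at the floor on some arrays.

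More distant relatives of ribosomal proteins showed no call. RPL7L1, a relative of RPL7 with a role in ribosome assembly, had 10.96, 10.78 and 10.74 in IPEC-J2, against 11.26, 11.54 and 11.15 in IPEC-1, a log2 difference of -0.49 (adjusted p = 0.0798 from limma). Its lines did not overlap. RSL24D1, an assembly factor of the 60S subunit, differed by 0.03, and a probe set of the nucleolar protein RSL1D1 by 0.17, both with overlapping lines. A brighter RSL1D1 probe set averaged 9.51 in both lines.

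Ribosome biogenesis factors went both ways. Of 51 probe sets tested from 39 genes, 2 were higher and 7 lower, or 3.92% and 13.7%, against 8.79% and 10.2% of all probe sets, and their median difference was -0.19. NPM1, a nucleolar chaperone, had 12.81, 12.73 and 12.87 in IPEC-J2, against 11.57, 11.04 and 11.01 in IPEC-1, a log2 difference of 1.60 (adjusted p = 0.00473 from limma). NOP16 was higher by 0.68, while 1 probe set of POLR1D, a subunit shared by RNA polymerases I and III, fell by 0.98 and 1 of NIP7, which acts in 60S assembly, by 0.76 on the log2 scale. A brighter POLR1D probe set differed by -0.05 (adjusted p = 0.802 from limma).

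Because RPS27L is known as a p53 target in human cells, other such targets were set beside it. Of 17 probe sets tested from 14 genes, 6 were called higher and 1 lower, or 35.3% and 5.88%, against 8.79% and 10.2% of all probe sets. Their median log2 difference was 0.49. The list was chosen with earlier results of these data known, so nothing is read from these counts. CDKN1A, the cell cycle inhibitor p21, had 10.76, 11.87 and 11.53 in IPEC-J2, against 7.81, 8.20 and 8.45 in IPEC-1, a difference of 3.23 (SE 0.34, adjusted p = 0.00315 from limma). PHLDA3, an inhibitor of AKT signaling, differed by 4.15 with 1 IPEC-1 array at the floor, and 1 probe set of SESN1, a stress-induced regulator of growth signaling, fell by 0.69 on the log2 scale. The 6 higher probe sets ran from 0.80 for PERP and 0.95 for GADD45A, both below the difference of RPS27L, to 2.45 for BTG2, 2.61 for ZMAT3, 3.23 for CDKN1A and 4.15 for PHLDA3. The 10 probe sets not called ran from -2.21 for TP53I3 to 2.34 for FAS, both with arrays at the floor. All IPEC-J2 arrays of TP53I3 lay below all IPEC-1 arrays, while CCNG1 differed by 0.07. The state of p53 itself is not measured by these signals.

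The genes with the most similar profiles were found by the root mean square distance over the 6 arrays, after subtracting the mean of each probe set, among 5572 named probe sets above the floor on all arrays. For RPS27L they were SCAMP4, MAP2K2 and CPD, at distances of 0.05 to 0.06 and log2 differences of 1.00, 0.96 and 1.07. For RPL22L1 they were FNTA, CALM3 and BDH2, with differences of -1.32, -1.43 and -1.29. RPL26L1 was closest to PARK7, MRPL2 and NSRP1, at distances of 0.02 to 0.04. RPL36AL was closest to EIF3K, MARCH6 and GUCD1, and the bright RPS27 probe set to SPCS1, CRK and AP3D1. None of these profiles belongs to another cytosolic ribosomal protein, and nothing is read from this. Only 78 of the 5572 candidates were probe sets of such proteins. The differences of RPS27L, RPL22L1, RPL26L1 and RPL36AL lay outside the range of these 78, so a near profile among them was hardly possible.

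Across 18 alternative settings, several of which leave a difference as it is, the differences ranged from 0.91 to 1.07 for RPS27L, from -1.44 to -1.27 for RPL22L1, from -0.76 to -0.57 for RPL26L1 and from -0.52 to -0.41 for RPL36AL. For RPS27 the bright probe set ranged from -0.68 to -0.26 and the dim one from -1.06 to -0.68, where -0.68 is the mean of the pair.

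**Figure D4:**
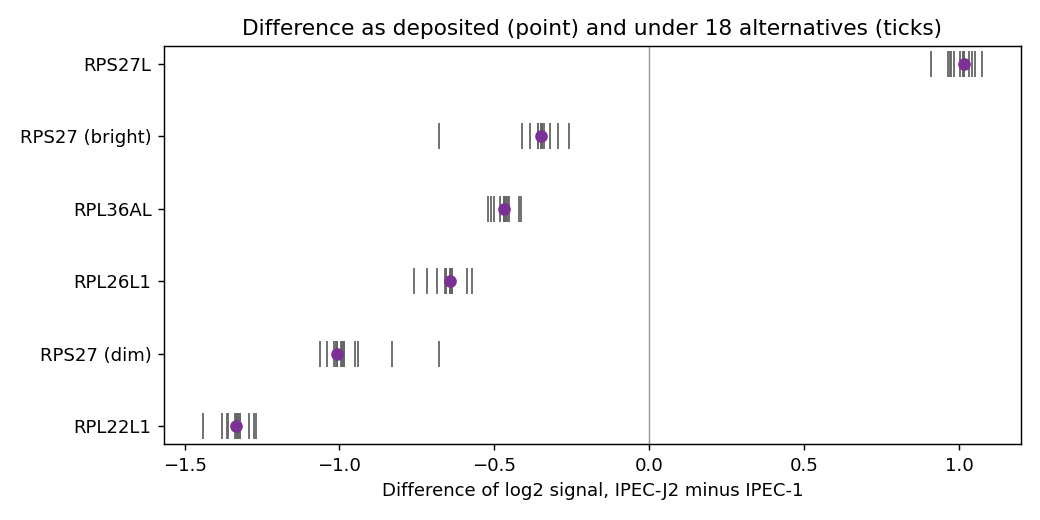
Log2 difference, IPEC-J2 minus IPEC-1 (horizontal axis), of each probe set from the deposited signals (purple point) and under 18 alternative settings (grey ticks), which include leaving out each array and the values within culture notes A and B. RPS27L stays between 0.91 and 1.07 and RPL22L1 between -1.44 and -1.27.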

How the data were processed

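The deposited table holds 1 log2 signal for each probe set on each array. Per the submitters' processing notes, the authors used GCOS 1.1.1 and PLIER. The methods name a later GCOS version with global scaling of each array to a common target signal, then correction of background, a normalization step and the summary of probes into probe sets. Which log base was used, and how the later normalization step was done, is not given in the sources used here. Base 2 was assumed because the floor of exactly 4 is the log2 of 16. Detection calls were not used. Precision is limited by having 3 arrays per line.

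Cell line and replicate number came from the sample titles. According to the methods, the arrays come from 3 separate experiments, which the labels do not assign to arrays. The p-values cover the spread among these cultures only. All arrays held different values. Symbols came from the platform annotation, and the gene identifiers of all 6 probe sets carried the same symbol in the RefSeq gene table. No genome, promoter or protein sequence was used.

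Probe sets were compared by limma (version 3.58.1, R 4.3.3, default eBayes, no block) with Benjamini-Hochberg adjustment over 16322 probe sets. The 7677 probe sets at the floor on every array were left out, since they have no spread. On simulated data without a floor, the script was checked only for returning median differences close to those planted. The error rates of the calls were not tested. With 3 arrays per line, the smallest p of an exact permutation test is 0.1. The genes and lists were chosen with earlier results of these data known. Genes outside the 5 were named by rule: the parents, the called probe sets with the largest difference per list and direction (3 for ribosomal proteins, 2 for the p53 and biogenesis lists) and the 3 nearest profiles per gene. RPS27A, RPL7L1, RSL24D1, RSL1D1, the brighter RPS25 probe set, RPS6, FAU, RPS28, the brighter POLR1D probe set, ZMAT3, BTG2, GADD45A, PERP, PECAM1, CD3E, VIM and PDGFRB were added after their values were seen. So were VIL1, CLDN3, KRT19, OCLN, TP53I3, FAS and CCNG1. The alternatives changed the filter on dim probe sets, the normalization between arrays, the offset, the eBayes options and the unit (means per gene). They also changed the test (the methods' t-test, run per probe set), the block and the arrays included. Some other genes are not reported here.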

Additional observations from a re-analysis of the deposited data

How the results depend on the processing

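Of the 108 values of the 6 probe sets under alternatives, 81 kept their side of the threshold or moved by less than the SD between replicates. The deviations of same-numbered arrays correlated at -0.04, -0.12 and 0.02, so the replicate numbers of the titles showed no pairing. Arrays that share a culture note correlated at 0.051 (note A) and 0.165 (note B). The deviations of IPEC-J2 replicate 2 and IPEC-1 replicate 3 correlated at 0.128. Whether the notes pair the arrays was not tested. With culture note as a random block, 1768 probe sets were higher and 2145 lower. With the replicate number as a block, which leaves 2 residual degrees of freedom, the calls of RPS27L (1.02), the dim RPS27 probe set (-1.01), RPL26L1 (-0.64) and RPL36AL (-0.47) ended at the same differences, and 465 probe sets were higher and 493 lower, with 0 ribosomal proteins higher. Centring on the 75th percentile ended the call of RPL36AL (-0.41). The bright RPS27 probe set was called with the probe sets at the floor on every array kept, with a mean signal of at least 6, with trend and robust options, with the methods' t-test and with culture note as a random block (-0.35 each), with quantile normalization (-0.36) and as the mean of both probe sets (-0.68). Within note A the difference was 0.91 for RPS27L, -0.42 for RPL36AL and -0.26 and -0.83 for the bright and dim RPS27 probe sets, and within note B -1.44 for RPL22L1, -0.76 for RPL26L1 and -0.41 for bright RPS27. The shift of RPS27L minus RPS27 was 1.17 within note A and 1.70 with means per gene.

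With 1 array left out, RPL26L1 differed by -0.72 to -0.57 and RPL36AL by -0.50 to -0.45, and between 722 and 1569 probe sets were higher and 870 to 1300 lower, where 1435 and 1660 were called with all arrays. The lowest counts came without IPEC-J2 replicate 3, and the number of higher probe sets was 865 without IPEC-J2 replicate 2, that of lower ones 1050 and 965 without IPEC-1 replicates 2 and 3. Means per gene gave 662 higher and 762 lower, out of 5513. The counts of higher and lower ribosomal protein probe sets were 1 and 0 by limma with defaults, 4 and 20 with floor probe sets kept, trend and robust options or the methods' t-test, 2 and 2 with a mean of at least 6, 1 and 2 with quantile normalization or note as a random block, 1 and 1 with means per gene, and with 1 array left out 1 to 2 were higher and 0 lower. The cause was not tested. Whether signals near the top of the scale are compressed was not tested, and the number of arrays limits all calls.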

Other observations

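Among ribosomal protein genes with several tested probe sets, RPS27 included, 25 in all, the dimmest probe set lay further from 0 than the brightest in 22, and both had the same sign in 13. In 8 of these genes the dimmest probe set was at the floor on some arrays, and in the other 17 it lay further from 0 in 15 with the same sign in 9. The part of the spread between replicates in these counts was not tested. RPS27, RPS25 and RPS6 were among the genes with the same sign, while for FAU the brightest probe set differed by -0.08 and the dimmest by 2.13, with all IPEC-1 arrays of the dimmest at the floor.

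A signal at the floor did not always mark a dim probe set. A probe set of RPS28 had 11.18, 10.88 and 11.17 in IPEC-J2, against 11.06, 11.12 and 4.00 in IPEC-1, and its difference of 2.35 rests on that 1 array. In all, 4 tested probe sets were at the floor on 1 array and at 10 or above on the other 5.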
